A study of Arabidopsis thaliana with 9 samples.

Results

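Transcript levels in whole wild-type seedlings of Arabidopsis thaliana were compared after 8 d on the compound FPX and before transfer to it. Seedlings 4 d old, raised on MS medium, were moved to the same medium with 45 µM FPX, and the 3 arrays called FPX 8 d were made from seedlings kept on it for 8 d. The 3 arrays called 0 d were made from 4-d-old seedlings that had not been moved. These 6 arrays were chosen by their labels from the 9 of the series, and the other 3, from seedlings after 2 d on FPX, entered the fit only through the shared estimate of spread. The FPX 8 d seedlings had aged by the same 8 d, no untreated seedlings of their age were analysed here, and treatment and age therefore cannot be told apart. Per the submitters, the 0 d arrays also serve another series and were normalized anew for this one, so a difference between hybridization batches cannot be told apart from treatment either. The labels do not tell whether the 3 arrays of a group stand for separate cultures, and p-values cover no more than the spread among these arrays, which may be technical.

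FPX is described by the submitters as a compound that promotes callus and shoot regeneration. Callus is a mass of dividing cells that a wounded or hormone-treated plant tissue can form, and in Arabidopsis it is known to arise through a programme shared with lateral root initiation, under the control of auxin. A green seedling spends much of its transcription on chloroplasts: plastid genes encode core subunits of the photosystems, and nuclear genes encode the antenna proteins, the assembly factors and the enzymes of chlorophyll synthesis. Dividing cells in turn need DNA polymerases, histones, kinesins and new ribosomes, and ribosome assembly is centred in the nucleolus, where RNA polymerase I makes ribosomal RNA.

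The arrays report a signal for each probe set, a group of short probes against 1 transcript or several. Of 11249 probe sets in the deposited table, 11228 were left after 21 Affymetrix controls had been set aside, and these were tested on log2(signal + 16) with limma, at a Benjamini-Hochberg adjusted p of 0.05. A one-way comparison of the 3 groups, probe set by probe set, gave a p at or under 0.04 for 11202 of them (99.77%). The deposited table is thus a selection of probe sets that differ among the groups, and counts of changes are counts within that selection. Arrays of FPX 8 d correlated with each other at 0.987 to 0.990 over probe sets and arrays of 0 d at 0.988 to 0.991, while arrays of FPX 8 d correlated with those of 0 d at 0.712 to 0.733.

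After 8 d on FPX 6159 of the 11228 probe sets had risen (54.9%) and 4058 had fallen (36.1%), so that 91.0% were called in 1 direction or the other. The FPX 8 d arrays and the 0 d arrays did not overlap for 10302 probe sets (91.8%). A rise of at least 2-fold was called for 2407 probe sets (21.4%) and a fall of at least 2-fold for 1760 (15.7%). The median log2 change over all tested probe sets was 0.36 on the deposited scale, and the same median was 0.11 when array medians were set equal, 0.17 after quantile normalization and 0.61 when arrays were scaled on the 7 hybridization controls in the table. Those controls, spiked in before hybridization, had a mean log2 change of -0.25, and the 5 poly(A) controls, spiked in before labelling, had -0.57. Both sets of controls come from the selected table. They may have been kept because they differed among the groups, so the controls and the scaling on them are no neutral reference. The share of rises among changes of at least 2-fold was 57.8% on the deposited scale, 39.2% with equal array medians, 44.9% after quantile normalization and 73.3% on the hybridization controls. Changes in named genes below are on the deposited scale, and each is to be read against that median.

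Most genes that could be named had no symbol. The annotation gave exactly 1 gene to 5981 probe sets, and 5072 of these (5040 genes) belonged to a gene known by its locus code alone, against 909 (901 genes) with a symbol. An Arabidopsis locus code gives the chromosome after AT and then the order of the gene along it. Of the probe sets with a locus code alone 2982 rose (58.8%) and 1657 fell (32.7%), with a median log2 change of 0.44. Of those with a symbol 436 rose (48.0%) and 405 fell (44.6%), with a median of 0.10. Rises of at least 2-fold were called for 1164 of the 5072 locus-code probe sets and falls of that size for 669. Of the 909 with a symbol 180 and 193 were so called. Over all probe sets the shares were 21.4% and 15.7%. At 8-fold or more the locus-code probe sets gave 37 rises and 35 falls, out of 75 and 92 over all 11228 probe sets. On chromosomes 1 to 5 the share of locus-code probe sets that rose was 57.9%, 56.4%, 58.4%, 59.4% and 61.2%. Both classes passed through the same selection, and the difference between them was not tested.

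**Figure D1:**
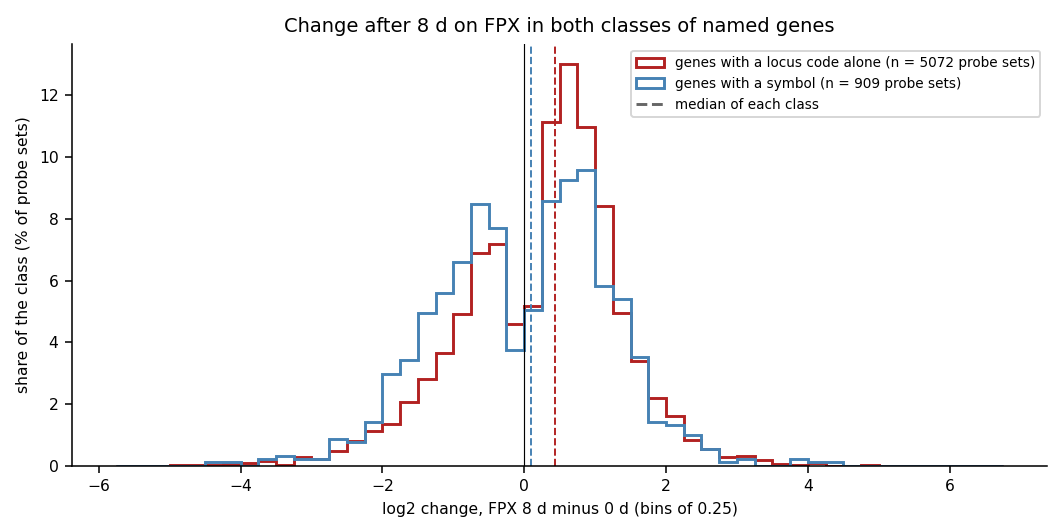
Share of probe sets by log2 change, FPX 8 d minus 0 d, for genes with a locus code alone and for genes with a symbol; dashed lines mark the medians, 0.44 and 0.10. Both outlines dip near 0, where few probe sets are left in the selected table, and the locus-code outline holds more of its probe sets to the right of 0.

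The genes named here without a role carry no name in the files or the gene table used, so only their values can be given. AT1G56680, on chromosome 1, had the largest rise among genes chosen by the naming rule. Its signal was 6277, 7431 and 6979.7 on the FPX 8 d arrays, against 219, 228 and 205 at 0 d, a log2 change of 4.89 ± 0.11 (SE, limma adjusted p = 1.89e-10). AT4G38410, on chromosome 4, had 5724, 5013 and 5132 on the FPX 8 d arrays and 153, 144 and 202 at 0 d, a change of 4.87 ± 0.14. In both genes every FPX 8 d array lay above every 0 d array, which the naming rule required. AT3G48510 had 1701, 1447 and 1778 after 8 d on FPX and 64.1, 60.6 and 92.9 at 0 d (4.24 in log2). AT2G04480 had 1055, 1196 and 1167 after 8 d on FPX and 36.7, 46.4 and 54.6 at 0 d (4.23). The 3 arrays of a group were close to each other here.

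Further down the list, AT5G60630 had 2661, 2652 and 2365 after 8 d on FPX, against 121, 129 and 154 at 0 d, and was 17.2-fold higher. AT3G61930 and AT5G48940 both changed by 4.01, with means of 2449.7 ± 392 and 2249.7 ± 198 after 8 d on FPX and of 136 ± 21.4 and 126 ± 28.4 at 0 d (SD, n = 3). AT4G19460 had the widest relative spread at 0 d of the rises shown, with 31.9, 78.0 and 72.6 there and 1255, 1141 and 998 after 8 d on FPX; its change was 3.96 ± 0.21. The other rises among the 15 largest were AT5G25490 (3.95), AT2G43480 (3.65), AT5G50010 (3.53), AT5G60530 (3.52), AT1G50060 (3.49), AT5G48360 (11.3-fold) and AT1G69526 (3.40). AT1G50060 differed from the rest in its course: its mean signal was 277 ± 61.1 after 2 d, 7989 ± 1163 after 8 d and 691 ± 46.9 at 0 d (SD, n = 3), so the signal lay below its 0 d level at 2 d and above it at 8 d. AT5G60630 had a mean of 165 ± 41.0 at 2 d, near its 0 d level, and AT2G04480 had 494 ± 49.8, between both ends.

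The largest fall among genes chosen by the rule was that of AT1G73120, on chromosome 1. Its signal was 44.9, 96.1 and 49.5 on the FPX 8 d arrays, against 2183, 1959.8 and 2568 at 0 d, a log2 change of -4.87 ± 0.20 (SE, limma adjusted p = 1.64e-09). AT5G48490, on chromosome 5, had 108, 92.3 and 136 after 8 d on FPX and 3237, 3032 and 3077 at 0 d (-4.63 ± 0.16). Its mean at 2 d was still 2607 ± 606, so most of the difference lay between 2 and 8 d. AT2G04050 had 75.2, 32.8 and 109 after 8 d on FPX and 1873, 1729.9 and 1547 at 0 d (-4.39 ± 0.28), and its FPX 8 d arrays spread more widely than those of the genes before it. AT2G36145 had 112, 106 and 72.3 after 8 d on FPX and 1908, 1939 and 2270.4 at 0 d (-4.20).

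AT3G22620 had 245, 178 and 179 after 8 d on FPX, against 3832, 4158 and 3721 at 0 d, and a mean of 268 ± 46.6 at 2 d (SD, n = 3). Its 2 d level was thus already close to that at 8 d. AT5G11420 had 364, 511 and 559.8 after 8 d on FPX and 7963, 6675 and 7448 at 0 d (-3.92 ± 0.14), and AT1G52100 had 581, 308 and 635 after 8 d on FPX and 6878, 6509 and 6066 at 0 d (-3.69 ± 0.26). In AT1G52100 the second FPX 8 d array lay below the other two, and all of them lay far under the 0 d range. The other falls among the 15 largest were AT4G33550 (-4.17), AT5G17820 (-3.91), AT5G40690 (-3.91), AT2G48130 (-3.79), AT5G45950 (-3.71), AT2G34620 (-3.61), AT2G37870 (-3.55) and AT1G04800 (-3.53). Low signals have no background level to be set against here, so a fold change of a gene that ended near the bottom of the scale depends on the added 16.

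**Figure D2:**
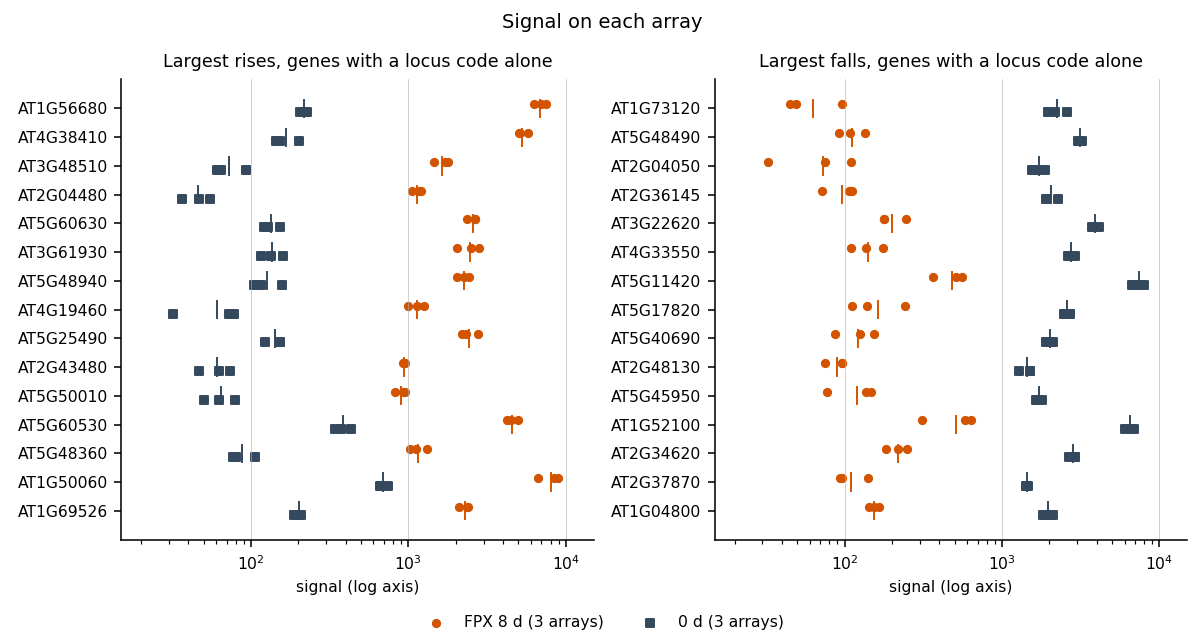
Signal on each array (log axis) for the 15 largest rises and 15 largest falls among genes with a locus code alone; orange circles are the FPX 8 d arrays, dark squares the 0 d arrays, and vertical ticks the group means. Groups do not overlap in any of the 30 genes, which the naming rule required.

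With most clone names left out, the gene table gives another name to 64 of the locus-code genes, and these let part of the class be described. A few of the 64 names, such as that of AT4G00810, are still clone or annotation codes that tell no role. Of the 64, 34 rose, 22 fell and 8 were not called, shares near the 54.9% rises and 36.1% falls over all probe sets. Their median log2 change was 0.47. By at least 2-fold 19 rose and 9 fell, against 21.4% and 15.7% of all probe sets. Apart from NPF6.2 and NPF6.4, given with their family, those described here were picked from these 28 after the values had been seen. Among them were PESCADILLO (AT5G14520) and NOTCHLESS (AT5G52820), which act in maturation of the large ribosomal subunit, and NOB1 (AT5G41190), known in yeast as a nuclease of the small subunit's RNA. PESCADILLO had 5941, 5485 and 6192 after 8 d on FPX and 1529, 1546 and 1580.2 at 0 d, a log2 change of 1.91 ± 0.08 (SE, limma adjusted p = 2.3e-09). NOTCHLESS had 2271, 2127 and 2159.6 after 8 d on FPX and 356, 531 and 403 at 0 d (2.32), and NOB1 rose by 1.65. COILIN (AT1G13030), a scaffold of Cajal bodies, the nuclear bodies where splicing particles mature, had 676, 616 and 641 after 8 d on FPX and 107, 129 and 166 at 0 d (2.16). RNA helicase 57 (AT3G09720, 1.26), the minor spliceosome protein U11/U12-65K (AT1G09230, 1.18), RDM16 (AT1G28060, 1.15) and CACTIN (AT1G03910, 1.03) also rose.

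CURT1A (AT4G01150) and CURT1C (AT1G52220), which bend thylakoid membranes at the edges of grana, fell, with log2 changes of -1.35 and -1.74. CURT1A had 3970.2, 4411 and 4693 after 8 d on FPX and 11409, 10719 and 11101 at 0 d. A further member of the family went the other way: CURT1D (AT4G38100) had 1112, 1133 and 1299 after 8 d on FPX and 497, 479 and 468 at 0 d, a rise of 1.26 ± 0.08 (SE, limma adjusted p = 6.75e-08). NADP-dependent malate dehydrogenase (AT5G58330), which exports reducing power from the chloroplast as malate, fell by 1.75. Geranylgeranyl reductase (AT1G74470), which makes the phytyl tail of chlorophyll and tocopherol, fell by 1.18. Of the transporter genes of the NRT1/PTR family, NPF4.3 (AT1G59740) had 1728, 1733 and 1674 after 8 d on FPX and 175, 219 and 186 at 0 d, a rise of 3.05. NPF3.1 (AT1G68570) had 138, 174 and 205 after 8 d on FPX and 852, 845 and 804 at 0 d, a change of -2.19. NPF6.2 (AT2G26690) also fell (-0.57), and NPF6.4 (AT3G21670) was not called (-0.21). FKBP65 (AT5G48570), an immunophilin also called ROF2, fell by 2.17. HRA1 (AT3G10040), a regulator known from low oxygen, rose by 1.65, the efflux carrier DTX50 (AT5G52050) by 1.61 and the dehydrin HIRD11 (AT1G54410) by 1.09.

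The position of the genes was described through pairs of immediate neighbours. Among 5878 genes placed by the order of the RefSeq gene table (assembly TAIR10.1), 57.7% rose and 33.8% fell, and 1415 pairs of measured genes were next to each other. Both members rose in 469 pairs (33.1%), both fell in 167 (11.8%), 1 rose and 1 fell in 530 (37.5%), and at least 1 was not called in 249 (17.6%). Both rose by at least 2-fold in 74 pairs (5.23%) and both fell by at least 2-fold in 25 (1.77%). Over all probe sets 21.4% rose and 15.7% fell by that much. Whether neighbours changed together more often than the shares of single genes would give was not tested. Of all neighbouring pairs 5 changed at least 4-fold in 1 direction, and 1 of these rose: AT5G60520 had means of 2139 ± 27.8 after 8 d on FPX and 239 ± 19.0 at 0 d, and its neighbour AT5G60530 had 4455, 4220.0 and 4929.6 after 8 d on FPX and 371, 432 and 343 at 0 d (SD, n = 3). The pairs that fell were AT1G73110 and AT1G73120 (means of 210 and 63.5 after 8 d on FPX and of 891 and 2237 at 0 d), AT4G30450 and AT4G30460 (-3.19 and -2.56), AT2G43550 and AT2G43560 (-2.48 and -2.38), and AT1G29660 and AT1G29670 (-2.01 and -2.09). Some of the largest changes had a neighbour going the other way. AT4G33550 fell by 4.17 beside AT4G33560, which rose by 3.01, with means of 1326 after 8 d on FPX and 151 at 0 d. AT5G48490 fell by 4.63 beside AT5G48500, which rose by 1.83, and AT1G69526 rose by 3.40 beside AT1G69523, which fell by 1.17. The counting of signal from neighbours that share sequence or overlap cannot be checked from the files.

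Among genes with a symbol the largest rises were those of TBL36, EEL, IAA30 and GH9B13. TBL36 (AT3G54260), of a family whose members acetylate wall polysaccharides, had 4063, 4282 and 4324 after 8 d on FPX and 184, 178 and 171 at 0 d. EEL (AT2G41070), a bZIP factor known from maturing seeds, had 1637, 1508 and 1537 after 8 d on FPX and 82.0, 89.4 and 57.5 at 0 d, a log2 change of 4.11 ± 0.12 (SE, limma adjusted p = 3.9e-10). IAA30 (AT3G62100), of the Aux/IAA repressors of auxin response, had 1391, 954 and 1165 after 8 d on FPX and 59.8, 70.1 and 51.3 at 0 d. The groups were apart in all of them, which the naming rule required. The largest falls with a symbol were MSRB6 (AT4G04840), a methionine sulfoxide reductase, which repairs oxidized methionine in proteins, with 58.0, 84.7 and 53.1 after 8 d on FPX and 1608, 1404 and 1805 at 0 d, CP1 (AT4G36880), a cysteine protease, with 95.4, 70.8 and 23.3 after 8 d on FPX and 1396, 921 and 1759 at 0 d, and LHCB4.3 (AT2G40100), a minor antenna protein of photosystem II, with 147, 139 and 193 after 8 d on FPX and 2060.3, 2298 and 2418 at 0 d.

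Listed plastid-encoded genes and most listed nuclear genes of photosynthesis were lower after 8 d on FPX. Members of the gene groups here and below were listed by symbol with earlier results of these data known. Counts of such members are therefore no independent support. All 50 listed plastid-encoded genes fell, against 36.1% of all probe sets. They were 17 photosystem genes with a median log2 change of -0.995 and 7 NDH genes with -1.28. The others were 10 cytochrome and ATP synthase genes with -1.13 and 16 genes of ribosomal proteins and RNA polymerase with -1.09. The NDH complex passes electrons from photosystem I back to the plastoquinone pool. Among its genes ndhG had 44.9, 47.8 and 56.2 after 8 d on FPX and 375, 486 and 431 at 0 d, a change of -2.76 ± 0.12 (SE, limma adjusted p = 2.83e-09), and among the photosystem genes psbB, of the CP47 antenna, had 669, 672 and 614 after 8 d on FPX and 1992, 2444 and 1887 at 0 d (-1.66). The smallest fall of the 50 was that of psbJ (-0.39), which was not called after quantile normalization or on the hybridization controls. Quantile normalization left 44 of the 50 called and scaling on the hybridization controls 48, all of them falls. In whole seedlings, fewer cells of a type and less RNA per cell cannot be told apart, and that holds for each tissue-linked gene below.

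Nuclear genes for the same complexes also fell, against 36.1% falls over all probe sets. All 9 listed antenna and photosystem subunit genes fell, with a median of -1.22. All 3 listed nuclear NDH subunits (-2.59) and all 4 listed factors that edit or process NDH transcripts (-1.44) fell too. NdhN, of that complex, had 212, 190.4 and 223 after 8 d on FPX and 1433, 1347 and 1405 at 0 d. Of 11 assembly and electron flow factors 10 fell; the exception was TAAC, a thylakoid ATP/ADP carrier, which had means of 861 ± 83.4 after 8 d on FPX and 356 ± 33.5 at 0 d (SD, n = 3), a rise of 1.24. All 9 listed genes of tetrapyrrole and chlorophyll synthesis fell, with a median of -2.04. CHLI2, a subunit of magnesium chelatase at the first step of the chlorophyll branch, had 225, 225 and 209.7 after 8 d on FPX and 1363, 1220.2 and 1384 at 0 d (5.67-fold lower, limma adjusted p = 8.57e-10), and CHLM, which methylates magnesium protoporphyrin, had 1329, 1697 and 1326 after 8 d on FPX and 6451, 6461 and 6798 at 0 d. In carbon fixation and photorespiration 5 of 5 fell, led by SBPASE of the Calvin cycle (-2.14); RCA, the activase of Rubisco, fell least (-0.70) and was not called after quantile normalization. Plastid thioredoxins, some of which switch such enzymes on in light, fell in 5 of 6 genes, with TRXF2 at -2.14, while TY1 rose by 0.80. Plastid division and maintenance was mixed: of 11 genes 3 rose, 5 fell and 3 were not called, with a median of -0.17 that was 0.0767 on the hybridization controls. SECE1, of thylakoid protein translocation, had means of 413 ± 77.2 after 8 d on FPX and 1623 ± 157 at 0 d (SD, n = 3).

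Other transcripts tied to organelles went in both directions. The 6 listed mitochondria-encoded genes all rose, against 54.9% of all probe sets, with a median of 0.84. Among them ccb452, of cytochrome c maturation, had 620.1, 525 and 501 after 8 d on FPX and 96.2, 139 and 119 at 0 d. The gene nad1, of complex I, had 145, 183 and 191 after 8 d on FPX and 42.6, 61.5 and 61.8 at 0 d. Nuclear genes of mitochondrial respiration gave 2 rises, 5 falls and 2 not called, against 36.1% falls over all probe sets. Their median was -0.30, with CYTC-2, a cytochrome c, at -1.05. In starch metabolism 4 of 5 genes rose. APL4, a large subunit of ADP-glucose pyrophosphorylase, which makes the glucose donor for starch, had 424, 380.4 and 395 after 8 d on FPX and 49.1, 46.7 and 52.6 at 0 d, a change of 2.67 ± 0.13 (SE, limma adjusted p = 4.98e-09). Both genes with the symbol PWD rose: AT5G26570 by 0.89 and AT4G24450 by 1.01. SBE2.2, a starch branching enzyme, fell by 0.43, a fall that was not called on the hybridization controls.

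Genes that copy, repair and package DNA were higher after 8 d on FPX. All 16 listed genes of DNA replication and repair rose, against 54.9% of all probe sets, with a median of 1.21. All 10 listed chromatin remodelling factors also rose, with a median of 1.23. UNG, a uracil glycosylase of base excision repair, had 310.1, 290.3 and 284 after 8 d on FPX and 52.7, 33.5 and 32.4 at 0 d (5.67-fold higher, limma adjusted p = 3.28e-08). POLD3, a subunit of DNA polymerase delta, had 474, 522 and 493 after 8 d on FPX and 100.2, 121 and 92.8 at 0 d, and ICU2, the catalytic subunit of polymerase alpha, rose by 1.73. BSH, the SNF5-type subunit of SWI/SNF complexes, had 1277, 1389 and 1584 after 8 d on FPX and 270.0, 242 and 268 at 0 d (2.37), and CHR17, of the ISWI type, had 1564, 1535 and 1617 after 8 d on FPX and 339.6, 415 and 370.2 at 0 d (2.03). Of 7 histone and histone chaperone genes 6 rose, led by the linker histone HIS1-3 (1.83); HTB11, an H2B gene, was called lower with a change of -0.23, but its change was 0.02 on the hybridization controls, and the call was lost without FPX 8 d replicate 2 or 3 (-0.19 and -0.22) and without 0 d replicate 1 or 3 (-0.24 and -0.15).

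Of 16 genes of mitosis and cytokinesis 15 rose and 9 rose by at least 2-fold, against 54.9% and 21.4% of all probe sets. 3xHMG-box2, which binds mitotic chromosomes, had 1268, 1091 and 1126 after 8 d on FPX and 168, 192 and 228 at 0 d, and the topoisomerase gene TOPII had 792, 606 and 800.3 after 8 d on FPX and 116, 120.3 and 124 at 0 d. Among kinases of mitosis, Haspin changed by 1.59 and AUR1 to AUR3 at 0.79, 0.85 and 1.19. SIM, an inhibitor of cyclin-dependent kinases known for driving endoreduplication in trichomes, was the 1 gene that fell; it had 327, 253 and 253 after 8 d on FPX and 789.8, 768 and 899 at 0 d, a change of -1.51 ± 0.11 (SE, limma adjusted p = 1.38e-07).

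Nuclear RNA polymerase subunits and 4 groups of genes that process or export RNA rose in every listed member, against 54.9% rises over all probe sets. The lists hold symbols only and were made with earlier results of these data known. Members known by a locus code alone are not counted, and the counts are no independent support. The counts were 12 of 12 nuclear RNA polymerase subunits (median 1.14), 8 of 8 genes of ribosome assembly and ribosomal RNA processing (1.54), 18 of 18 splicing factors (0.92), 4 of 4 THO and TREX genes of messenger RNA export (0.95) and 3 of 3 tRNA 3' end nucleases (0.64). With equal array medians 40 of these 45 probe sets were still called, and all 40 rose. NRPA1, the largest subunit of RNA polymerase I, had 657, 740.4 and 847 after 8 d on FPX and 133, 120.4 and 113 at 0 d, a change of 2.46 ± 0.10 (SE, limma adjusted p = 2.14e-09). NRPA2, the second largest, rose by 1.83, while the small polymerase II subunit NRPB7 rose by 0.56 and was not called with equal array medians. PRH75, a nucleolar RNA helicase, had 5465, 6204 and 6233 after 8 d on FPX and 1109.6, 1124 and 1099 at 0 d (2.41), and RRP41L, an exosome-type protein, had 577, 648 and 849.6 after 8 d on FPX and 84.9, 125 and 67.6 at 0 d (2.72). LIS, a splicing factor known from female gametophyte development, had 1569.8, 1543 and 1619 after 8 d on FPX and 329, 398 and 377 at 0 d (2.06). The smallest rise of the ribosome set was that of PGY1, a ribosomal protein gene, at 0.40, and it was not called with equal array medians.

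**Figure D3:**
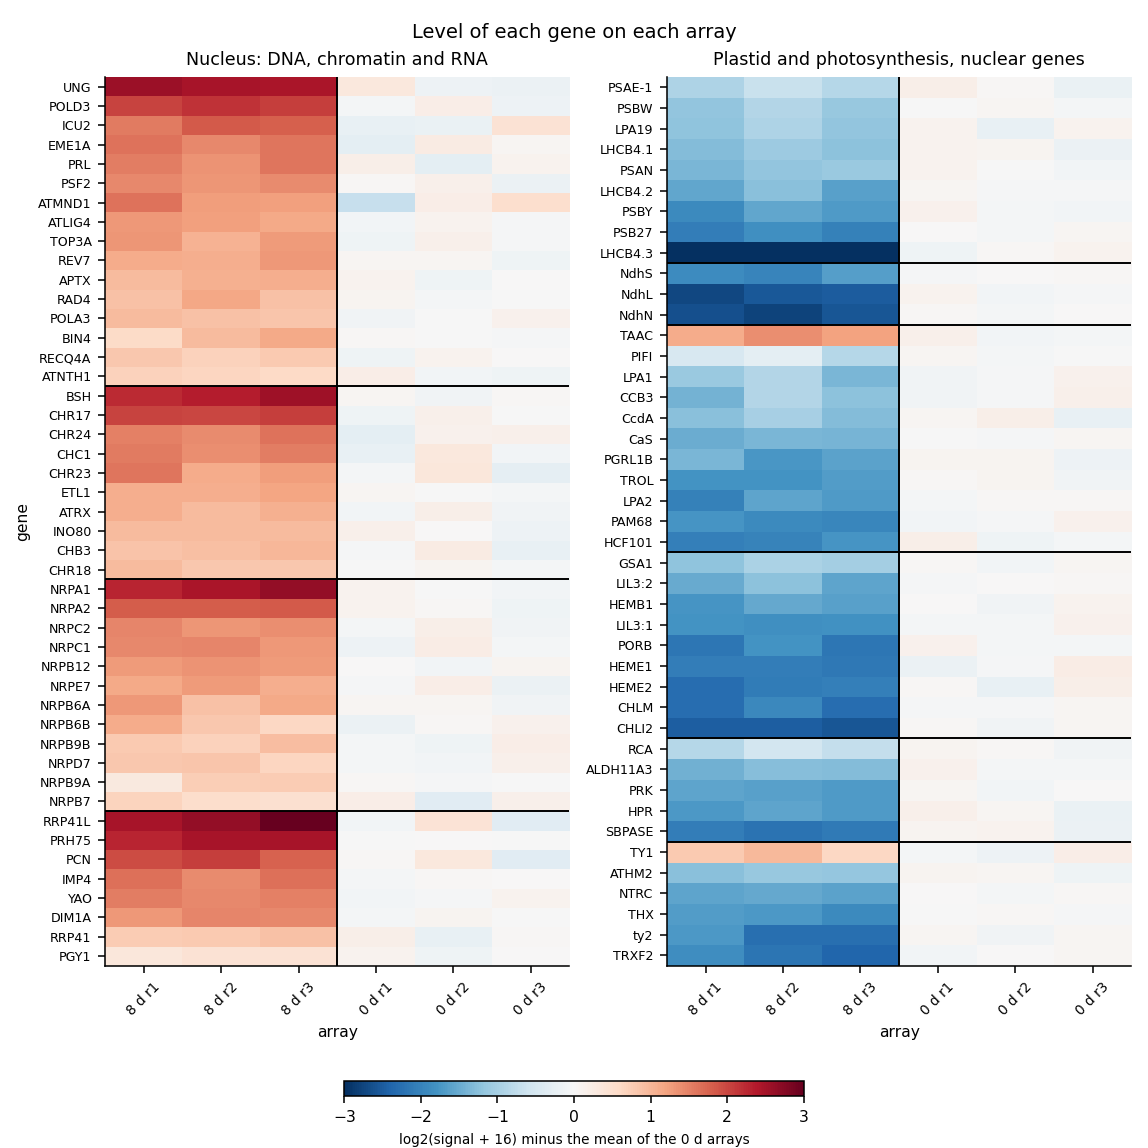
Level of each gene on the 3 FPX 8 d arrays (left columns) and the 3 0 d arrays (right columns) as log2(signal + 16) minus the 0 d mean, for DNA replication and repair, chromatin remodelling, RNA polymerases and ribosome assembly (left panel, top to bottom) and for nuclear genes of photosystems, NDH, thylakoid factors, chlorophyll synthesis, carbon fixation and thioredoxins (right panel); colours end at -3 and 3. All left-panel genes are red at 8 d, and all right-panel genes are blue except TAAC and TY1.

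Genes of the cell wall and cytoskeleton changed in both directions within each family. Over all probe sets 54.9% rose and 36.1% fell. Among expansins, which loosen walls, 5 rose and 6 fell: EXPA8 had 173, 254 and 219 after 8 d on FPX and 2397, 2207 and 2364 at 0 d (-3.35 ± 0.12, limma adjusted p = 8.1e-10), while EXPA15 had 1437, 1389 and 1552 after 8 d on FPX and 428, 329 and 356 at 0 d (1.94). Xyloglucan endotransglucosylases, which cut and rejoin the xyloglucan between cellulose fibrils, fell in 5 of 6 genes with a median of -2.10, led by XTH18 with 240.5, 268 and 212 after 8 d on FPX and 1990.3, 2258 and 2411 at 0 d; XTH20 rose by 1.34. GH9B13, of the endoglucanase family, had 3782, 3693 and 3554 after 8 d on FPX and 278, 257 and 225 at 0 d, while GH9B7 fell by 0.96. The xyloglucan backbone synthase gene CSLC04 fell by 1.97, and CSLA03, of the mannan synthase family, fell by 2.27. Of 4 beta-tubulins TUB1 had 194, 206 and 238 after 8 d on FPX and 1327, 1416 and 1256 at 0 d (-2.56), TUB5 (-1.17) and TUB6 (-0.53) fell, and TUB7 had 2297, 2165 and 1989 after 8 d on FPX and 967, 1007 and 958 at 0 d, a rise of 1.12. Among IQD proteins, which link calmodulin to microtubules, IQD26 had 854, 623 and 556 after 8 d on FPX and 61.1, 67.7 and 59.8 at 0 d (3.11), and iqd21 had 30.6, 47.6 and 40.8 after 8 d on FPX and 339, 324 and 398 at 0 d (-2.74). The RALF peptides and their receptor-type kinases, which sense wall state and restrain cell expansion, fell in 6 of 7 genes with a median of -1.25, with the receptor gene THE1 at -1.25 and FER at -0.66; RALFL31 rose by 0.42 and was not called with equal array medians or after quantile normalization.

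Genes of protein turnover and folding were split as well, with 1 exception. The counts are to be read against 54.9% rises and 36.1% falls over all probe sets. Of 9 ubiquitin-specific proteases, which remove ubiquitin, 8 rose and UBP22 was not called (0.16; -0.20 after quantile normalization and -0.10 with equal array medians, not called under either, and 0.41 and called on the hybridization controls). Their median was 0.71, but 0.44 after quantile normalization and 0.46 with equal array medians. UBP23 had 1527, 1323 and 1373 after 8 d on FPX and 549, 519 and 574 at 0 d (1.34 ± 0.09, limma adjusted p = 5.13e-08). Ubiquitin-conjugating enzymes gave 5 rises and 4 falls. The autophagy group of ATG8 proteins and ATG3 gave 2 rises, 4 falls and 3 not called: ATG8B and ATG8G rose by 1.45 and 1.43, and ATG8H (-2.07) and ATG8E (-1.75) fell. Of 11 serine carboxypeptidase-like genes 7 rose, 2 fell and 2 were not called. Among them scpl20 had 1507, 1478 and 1454 after 8 d on FPX and 253, 258 and 245 at 0 d. VPS2.2, of the ESCRT machinery that sorts membrane proteins to the vacuole, had 961, 872 and 1068 after 8 d on FPX and 252, 281 and 144 at 0 d (2.07), while VPS2.1 fell by 0.37, a call lost on the hybridization controls. In the unfolded protein response of the endoplasmic reticulum, BZIP60 fell by 1.31 and BZIP17 rose by 0.87; both encode stress-activated factors of that response. The co-chaperone gene Hop1 rose by 1.66.

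Hormone and patterning genes were led by auxin. Of 13 genes of auxin response, conjugation and synthesis 10 rose, against 54.9% of all probe sets, with a median of 0.95. GH3.3, which conjugates auxin to amino acids, had 8944, 10471 and 8910.4 after 8 d on FPX and 1509, 1115 and 1567 at 0 d (2.75 ± 0.13, limma adjusted p = 4.08e-09), and GH3.17 was 4.61-fold higher, while GH3.9 of that family fell, with means of 58.9 ± 21.3 after 8 d on FPX and 109 ± 12.9 at 0 d (SD, n = 3). LBD16, a factor of lateral root founder cells that is also required in callus, rose by 0.95. The synthesis gene YUC2 fell by 0.71, and IAA18 fell by 1.09. The gibberellin receptor genes GID1A and GID1B rose by 0.47 and 0.71. Among 11 organ patterning regulators 7 rose and 4 fell, shares near the 54.9% and 36.1% of all probe sets. PHV, of the adaxial leaf identity factors, had 1850.3, 1303 and 1534 after 8 d on FPX and 324, 279 and 335 at 0 d (2.25), and LHW, a bHLH factor of root vascular growth, had 1603, 1504 and 1526 after 8 d on FPX and 338, 333 and 355 at 0 d (2.12). The abaxial factor genes YAB3 (-1.53) and YAB5 (-0.83) fell, and TCP15, of the TCP growth regulators, had 122, 104 and 148 after 8 d on FPX and 889.7, 839 and 734 at 0 d (-2.58).

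Detoxification families held genes that rose and genes that fell. Of 23 UDP-glycosyltransferases 6 rose and 14 fell, and of 10 glutathione transferases 3 rose and 7 fell, against 54.9% rises and 36.1% falls over all probe sets. UGT73B4 had 1751, 1496 and 1613 after 8 d on FPX and 379, 419 and 299.7 at 0 d (2.11), and GSTU25 had 3316, 2849 and 3547 after 8 d on FPX and 886, 919 and 644 at 0 d (1.98), while GSTU18 had 247, 229.7 and 228 after 8 d on FPX and 1087, 1126 and 1024 at 0 d (-2.13). Of 5 listed genes of allantoin, urea and asparagine catabolism 3 rose and 2 fell. Both asparaginase genes rose, ASPGA1 by 1.57 and ASPGB1 by 1.45. ATP-citrate lyase, which makes cytosolic acetyl-CoA, gave 3 falls and 1 gene not called among 4 subunit genes, with ACLB-1 at -0.62. Of 10 beta-glucosidases 8 fell, against 36.1% of all probe sets, among them BGLU28 with 298, 77.4 and 292 after 8 d on FPX and 809, 1113 and 819 at 0 d, where the FPX 8 d arrays were widely spread. The sugar carrier genes SWEET2 (-1.59) and SFP2 (-1.55) fell, and SAG29, also a SWEET carrier, rose by 1.33. The dehydrin gene LTI30 had 369.6, 287 and 467 after 8 d on FPX and 2618, 2573 and 2617 at 0 d (-2.77).

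**Figure D4:**
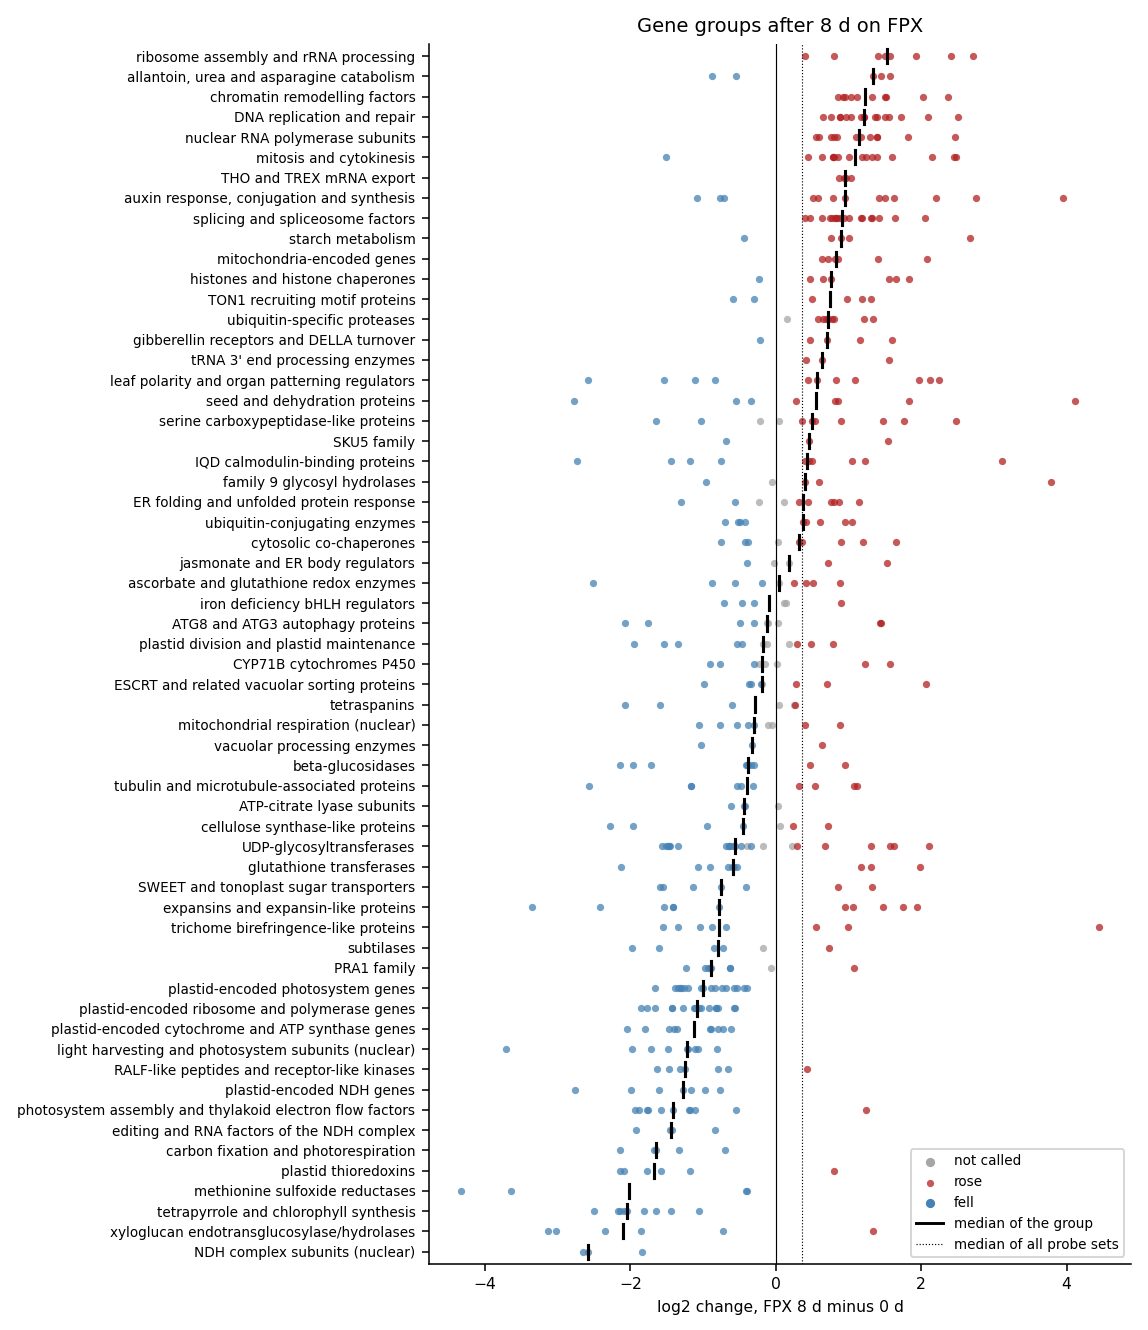
Log2 change, FPX 8 d minus 0 d, of each measured probe set (points) in gene groups of at least 3, ordered by the group's median (black bar); the dotted line is the median of all probe sets, 0.36. Points of DNA replication, chromatin remodelling, RNA polymerase, ribosome assembly and splicing genes all lie to the right of 0. Those of the photosystem subunit, NDH, chlorophyll and plastid-encoded groups all lie to the left. Photosystem assembly and electron flow factors have 1 point to the right, TAAC. Wall, turnover and detoxification families spread over both sides.

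**Figure D5:**
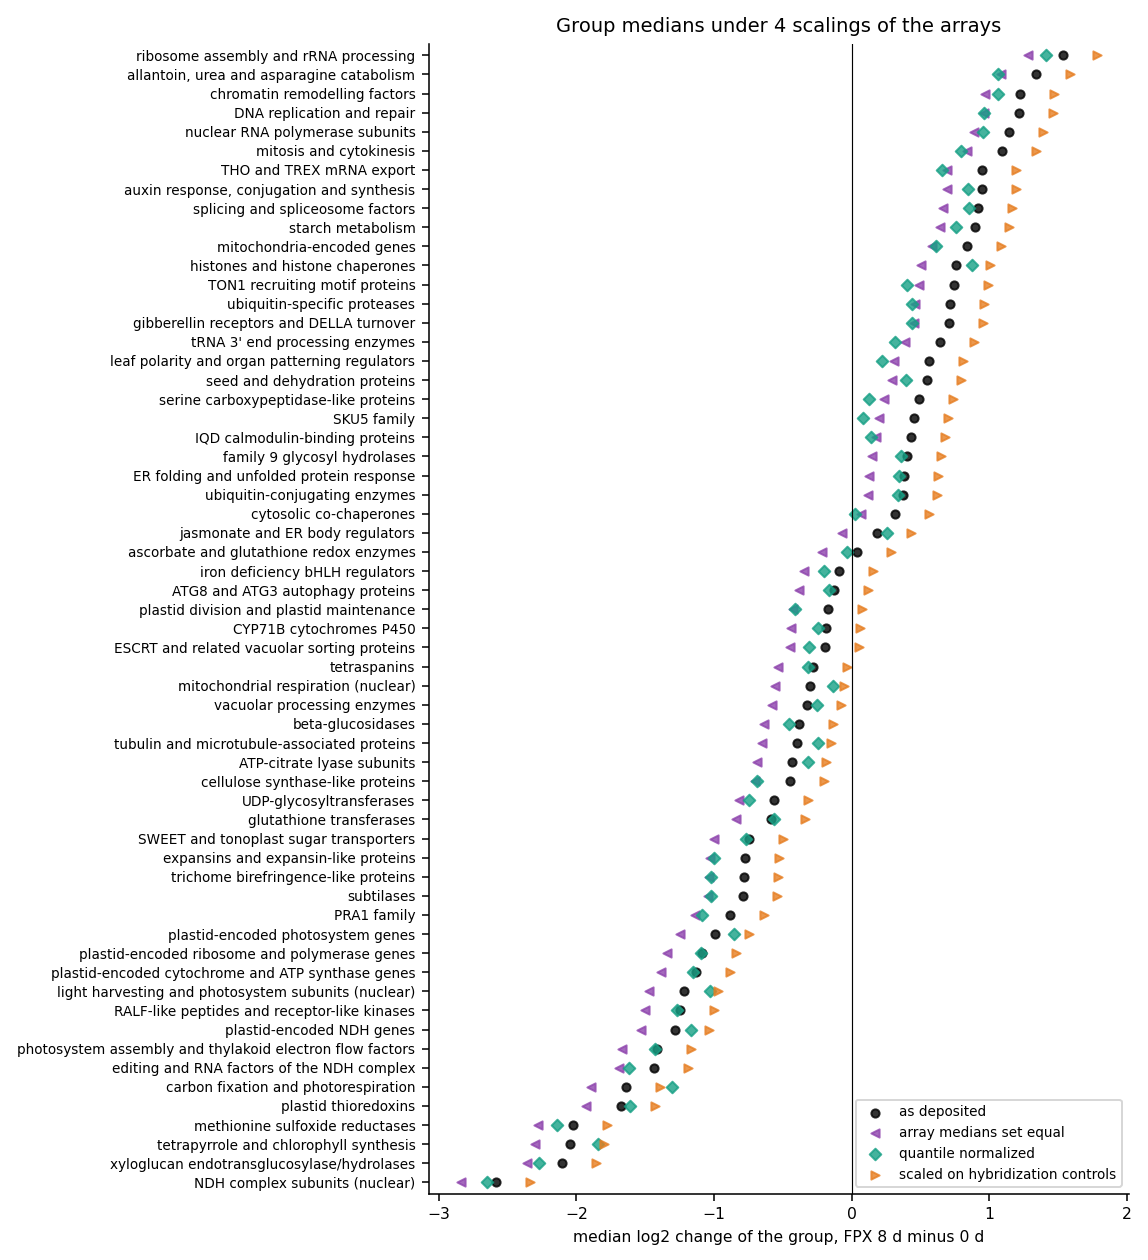
Median log2 change of each group under 4 scalings of the arrays. The order of the groups changes little, groups at both ends keep their side of 0, and groups with a median near 0 cross it.

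Markers of single tissues were mostly not among the probe sets that could be named. Of 7 stomatal markers 2 were measured, and their summed signal was 92.4 to 156 on the FPX 8 d arrays and 631 to 766 at 0 d. STOMAGEN, a peptide that promotes stomata and is made in mesophyll, had 27.1, 46.1 and 48.8 after 8 d on FPX and 560.2, 509 and 644 at 0 d, a change of -3.39 ± 0.15 (SE, limma adjusted p = 2.87e-09), and FMA, of guard cell fate, fell by 0.62 and was not called on the hybridization controls. Of 6 trichome markers 1 was measured, SIM, whose values stand above. Of 10 root markers 2 were measured, with a summed signal of 13539 to 14710 on the FPX 8 d arrays and 17415 to 17631 at 0 d; PYK10 fell by 0.39, with a change of 0.15 after quantile normalization, and NAI2 was not called (-0.02), with changes of -0.27 and 0.25 that were called with equal array medians and after quantile normalization. Of 6 phloem markers 3 were measured, with sums of 2527 to 2824 on the FPX 8 d arrays and 3323 to 3571 at 0 d, and with changes of -0.42 for SWEET11 (not called on the hybridization controls), -1.44 for CLE41 and 1.65 for CLE44; the mean of SWEET11 was 1782 ± 165 after 8 d on FPX and 2377 ± 85.6 at 0 d (SD, n = 3). Of 10 seed markers OLEO3 alone was measured and rose by 0.86. None of the 3 root cap, 7 xylem, 5 mesophyll, 6 shoot meristem and 7 flower markers was among the named probe sets. The part of a shift in tissue composition in the changes of the gene groups was not tested. Of 13 genes often used as references 6 were measured, among them the beta-tubulins TUB1 (-2.56) and TUB7 (1.12) given above. Reference genes that did not change may be missing from the selected table. Of the 6 measured, 5 fell and 1 rose, against 36.1% and 54.9% of all probe sets. Their median was -0.55, and it was -0.81 with equal array medians and -0.31 on the hybridization controls. Among them ACT11 fell by 0.58 and GAPC2 fell by 0.33, although the change of GAPC2 was 0.21 after quantile normalization.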

How the data were processed

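Per the submitters' processing notes the deposited signal intensity of each probe set came from MAS5. For its version and for the scaling of the arrays, the sources used here give nothing. The upper quartile (75th percentile) of intensity was 1046 to 1103 per array. Precision was limited by the number of arrays, and signals were not set against a background level.

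Intensities were tested as log2(signal + 16), which understates the change of dim probe sets, with limma 3.58.1 under R 4.3.3 (a linear model with moderated variances; 9 arrays, 1 mean per group, 6 residual and 5.24 prior degrees of freedom), two-sided, with Benjamini-Hochberg adjustment over 11228 probe sets. Named genes without a stated p in the text were called in this fit unless said otherwise. Python 3.11.15, pandas 2.3.3, NumPy 2.4.6 and matplotlib 3.10.9 were used for tables and plots. The fit was tested on simulated data.

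Names came from the platform annotation, and symbols were brought up to date through gene identifiers in the RefSeq gene table (5962 of 5981; 19 kept the platform's name); 222 with several genes and 5025 not listed there were not named.

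The rule named the 15 largest rises and 15 largest falls, over all named genes and again over those with a locus code alone, among called probe sets of 1 gene with no overlap between groups, no suffix of a shared probe set and a mean in the higher group above the median; up to 4 members of each gene group; and the reference genes. The annotation holds symbols and no protein names, so gene groups were assembled from symbols. Members and lists were chosen with earlier results of these data known. Genes outside the rule, among them neighbours, genes with another RefSeq name and further group members, were chosen after their values were seen. Alternatives tried were other pseudocounts, 3 other scalings, filters on dim and shared probe sets, fits on 6 arrays, with a replicate block, with a trended robust prior, and without each array.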

Additional observations from a re-analysis of the deposited data

How the results depend on the processing

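The number of rises of at least 2-fold was 2407 on the deposited scale and 1543 when array medians were set equal; the other 3 counts of calls stayed within 1.5 times under every alternative run. Leaving out 1 array gave 6018 to 6070 rises, 3942 to 3971 falls, and 2357 to 2462 rises and 1724 to 1781 falls of at least 2-fold. Same-numbered arrays did not deviate together (correlations of deviations -0.09, 0.08 and -0.003), so the numbers were not taken as pairs; the fit with a replicate block gave 6141 rises and 4050 falls. Of the 169 named probe sets put through the alternatives, 155 kept direction and call under every alternative run. UBP22 was at -0.20 after quantile normalization and -0.10 with equal array medians. NAI2 was at 0.25 after quantile normalization, 0.23 on hybridization controls and -0.0646 to 0.0292 with 1 array left out (above 0 without FPX 8 d replicate 3 and without 0 d replicate 3). After quantile normalization PYK10 was at 0.15, GAPC2 at 0.21 and the root marker median at 0.20, and on hybridization controls HTB11 was at 0.0152 and the root marker median at 0.0426. Group medians that crossed 0 on hybridization controls were those of plastid division (0.0767), CYP71B (0.0605), iron bHLH factors (0.15), ATG8 (0.12) and ESCRT (0.0519). The ascorbate and glutathione median was -0.0316 after quantile normalization, -0.21 with equal array medians and -0.0298 to 0.0956 with 1 array left out (lowest without 0 d replicate 2), and the jasmonate and ER body median -0.0692 with equal array medians. Without the 2807 dimmest probe sets the medians of expansins (1.01), jasmonate and ER body regulators (-0.0189), ubiquitin-conjugating enzymes (-0.0281) and tetraspanins (0.0423) crossed 0, since fewer members were tested. The cause of the other shifts was not tested.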
